A study of Rattus norvegicus with 24 samples.

Results

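The genes described here encode 10 subunits of the receptors for GABA, the main inhibitory transmitter of the brain: Gabra2, Gabra3, Gabra4, Gabra5, Gabrb1, Gabrb2, Gabrg1 and Gabrd of the GABA-A receptor, and Gabbr1 and Gabbr2 of the GABA-B receptor. They were taken as all probe sets (groups of short probes that read 1 transcript) with 1 of these gene symbols in the table of the array platform, which gave 18 of the 31042 probe sets tested. Of the 10 genes, 6 have 1 probe set and 4 have more than 1. Each array measured the hypothalamic block of 1 male Wistar rat aged 7 weeks, an outbred strain. The 18 rats formed 3 groups of 6: rats that breathed (R,S)-linalool, a scented alcohol of lavender oil, while restrained in wire mesh for 2 h (20 µL of liquid was evaporated into a box of 40 L), rats restrained for 2 h without the odour, and controls. The study asked what restraint and the odour change in hypothalamic gene expression, and the GABA receptors are of interest because linalool is described to act on GABA-A receptors. The authors normalized linalool and stress arrays as 1 set, and stress and control arrays as another, so linalool and control arrays were never set against each other.

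GABA-A receptors are chloride channels, most of them built from alpha and beta subunits together with a gamma or delta subunit, and the alpha subunit sets how GABA and benzodiazepines act on the channel. Receptors with alpha4 and delta lie mostly outside synapses, are abundant in the thalamus and carry a steady inhibitory current, while alpha2 is found mainly at synapses. GABA-B receptors are G-protein-coupled pairs of GABBR1, which binds GABA, and GABBR2, which couples to the G protein.

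Several of the genes lie side by side. On chromosome 14 of the rat assembly GRCr8, the protein-coding genes run in the order Gabrb1, Gabra4, Cox7b2, Gabra2 and Gabrg1, so that 4 of the 10 genes share 1 cluster. Gabrb2, Gabrd and Gabbr2, Gabbr1, Gabra5 and Gabra3 lie elsewhere, on chromosomes 10, 5, 20, 1 and X, with Gabrd and Gabbr2 both on chromosome 5. The promoters of the neighbours Gabra4 and Gabrb1 and of Gabrb2 are shown because these 3 genes lie next to each other or belong to 1 subunit class. With linalool, Gabra4 and Gabrb2 passed the threshold used below and Gabrb1 did not, and differences between these genes were not tested. The sequences are from a table of RefSeq promoters on GRCr8 in which 9 of the 10 genes were matched, and run from 250 bases before to 50 bases after the gene's start, 5′ to 3′ on the gene's strand. They come from chr14:36944497-36944796 on the plus strand (Gabra4), chr14:36902844-36903143 on the minus strand (Gabrb1) and chr10:27439543-27439842 on the plus strand (Gabrb2).
Gabra4: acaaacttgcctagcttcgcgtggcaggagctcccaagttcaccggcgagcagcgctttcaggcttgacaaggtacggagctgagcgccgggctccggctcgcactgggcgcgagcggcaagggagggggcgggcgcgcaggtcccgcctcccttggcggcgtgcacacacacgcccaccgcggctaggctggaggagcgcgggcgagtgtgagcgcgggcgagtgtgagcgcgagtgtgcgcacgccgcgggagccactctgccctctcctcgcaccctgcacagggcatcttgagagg
Gabrb1: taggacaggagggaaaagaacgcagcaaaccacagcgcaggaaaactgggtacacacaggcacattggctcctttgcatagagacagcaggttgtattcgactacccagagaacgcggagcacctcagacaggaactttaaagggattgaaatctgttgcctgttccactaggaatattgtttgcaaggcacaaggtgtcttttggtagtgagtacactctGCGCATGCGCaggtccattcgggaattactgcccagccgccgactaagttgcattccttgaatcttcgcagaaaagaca
Gabrb2: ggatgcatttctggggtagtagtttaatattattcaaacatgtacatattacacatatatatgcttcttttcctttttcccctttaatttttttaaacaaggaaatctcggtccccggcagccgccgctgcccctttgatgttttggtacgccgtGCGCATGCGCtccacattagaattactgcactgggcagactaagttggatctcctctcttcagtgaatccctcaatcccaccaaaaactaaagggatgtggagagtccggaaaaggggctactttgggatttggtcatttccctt
Capitals mark the palindromic element of 10 bases that nuclear respiratory factor 1 binds, a motif chosen after the sequences had been read, searched on both strands and not overlapping another motif. The promoters of the beta subunit genes Gabrb1 and Gabrb2 each hold it once, and 0.852% of the 33469 promoters of this length do. No match was found in the Gabra4 window. The cAMP response element TGACGTCA (1.83% of promoters), the EGR element GCGTGGGCG (0.544%) and the full inverted repeat of the glucocorticoid response element (0.0149%) were searched on both strands too, and their letters are in none of the 9 windows. G and C made up 70.7% of the Gabra4 window, 49.3% of the Gabrb1 window and 44% of the Gabrb2 window, against a median of 51.7%.

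The deposited values are log2 signals, and 83.7% of probe sets in the linalool set and 83.5% in the control set had a residual SD between rats under 0.01, so that differences on the log2 scale are strongly compressed for them. Of the 18 receptor probe sets, 4 were compressed in the first of these sets and 3 in the second, and their differences are given in residual SDs. The block carried hypothalamic neuropeptide transcripts. In the linalool set Avp averaged 11.75 in linalool and 11.37 in stress rats. Pmch averaged 12.48 in linalool and 12.32 in stress rats, against column medians of 8.13 to 8.15. Not all of the 10 hypothalamus markers measured were bright. In the control set Pomc, Otp and Sim1 averaged 7.43, 6.96 and 6.82 in stress rats, below column medians of 8.16 to 8.19. Oxt, Gal, Hcrt, Trh and Nkx2-1 lay above those medians, at 10.63, 9.43, 9.63, 8.44 and 8.37. Control arrays differed among themselves in markers of the meninges, with scores (mean distance from the mean of the set over 10 genes, in residual SDs) of -0.97 to -0.41 in stress rats and -1.06 to 2.29 in controls. Probe sets for bacterial and phage RNA, added or printed as array controls, also differed with the odour. With limma p-values adjusted over the 57 array controls alone, 19 of 45 passed 0.05 between linalool and stress arrays (15 higher, 4 lower). Between stress and control arrays 1 of 45 passed. Of the 31042 other probe sets, adjusted among themselves, 25% and 0.554% passed in these comparisons. The labels name no processing batch, so a processing difference and the odour cannot be told apart, and in the linalool comparison "rose" and "fell" describe the arrays.

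With linalool under restraint, Gabra2, Gabra4 and Gabrb2 of the GABA-A receptor and Gabbr2 of the GABA-B receptor fell relative to restraint alone, and Gabbr1 gave opposite results in different probe sets. Of the 18 probe sets 7 fell, 1 rose and 10 did not pass (limma, adjusted p under 0.05 over all probe sets). That is 44.4%, where 25% of all probe sets passed, with 38.9% lower, where 10.8% of all were lower, and 5.56% higher, where 14.2% of all were. Among the 14 receptor probe sets that were not compressed, 57.1% passed, against 49.7% of all such probe sets. Of the 14, 50% were lower, against 21.3% of all such probe sets, and 7.14% higher, against 28.4%. The median difference of the 18 probe sets was -1.13 residual SDs, against -0.0136 over all probe sets. With 1 probe set per gene, the one with the highest mean, 4 of 10 genes (40%) were lower and none higher, against 9.08% lower and 19.3% higher among all genes taken this way. At an unadjusted p under 0.05 there were 11 of the 18, against 37.7% of all probe sets. In bulk tissue, fewer cells of a type and less RNA per cell cannot be told apart.

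**Figure D1:**
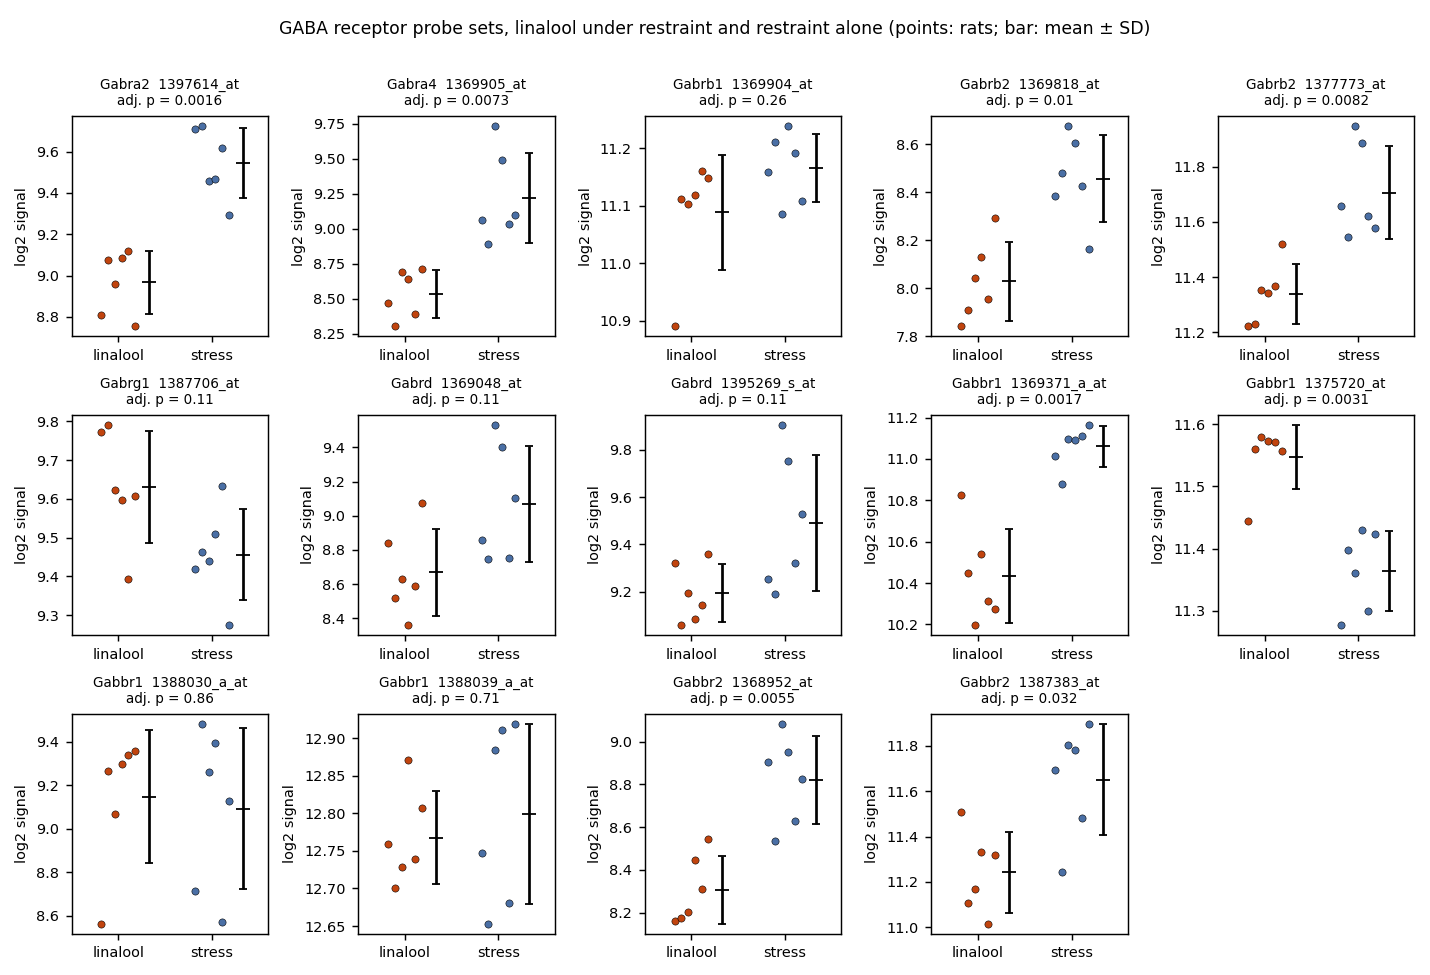
Log2 signal (vertical axes) of the 14 receptor probe sets that were not compressed, in linalool rats (left of each panel) and stress rats (right), 6 points each, with mean ± SD beside them. The groups do not overlap for Gabra2, Gabra4, 1 probe set of Gabrb2 and 2 of Gabbr1, and of those 2 Gabbr1 probe sets one is lower and the other higher with linalool. That is 5 of the 14, where 1524 of all 5058 probe sets that were not compressed did not overlap.

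Gabra2, which encodes the synaptic alpha2 subunit known from mice to carry anxiolytic effects of benzodiazepines, had log2 signals of 8.75, 9.02 and 9.12 (lowest, median, highest) in linalool rats, against 9.29, 9.54 and 9.72 in stress rats. The groups did not overlap, as for 11.9% of all probe sets and for 1524 of the 5058 that were not compressed. It averaged 8.97 ± 0.154 in linalool rats and 9.55 ± 0.168 in stress rats (SD, n = 6 each), a difference of -0.58 (SE 0.091, limma adjusted p = 0.00159), or 0.669-fold.

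Gabra4, the alpha4 subunit of receptors that classic benzodiazepines do not act on, had 8.30, 8.56 and 8.71 (lowest, median, highest) in linalool rats, against 8.89, 9.08 and 9.73 in stress rats. The linalool rats lay close together and all stress rats lay above them, with stress rats 3 and 4 the highest. The difference was -0.68 (SE 0.146, limma adjusted p = 0.00732), or 0.623-fold, and with any 1 of the 12 rats left out its adjusted p was at most 0.018 (for Gabra2 at most 0.00446).

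Gabrb2, a beta subunit of the most common synaptic receptors, fell in both of its probe sets. The first (1377773_at) had 11.22, 11.35 and 11.52 (lowest, median, highest) in linalool rats, against 11.55, 11.64 and 11.95 in stress rats, without overlap (difference -0.37, SE 0.0804, limma adjusted p = 0.00823). The second (1369818_at) had 7.84, 8.00 and 8.29 in linalool rats, against 8.16, 8.45 and 8.67 in stress rats, where stress rat 6 and linalool rat 6 crossed (difference -0.43, SE 0.0978, limma adjusted p = 0.0102). The call of 1369818_at ended with the replicate numbers as a block (limma adjusted p = 0.0524). Gabrb1, the other beta subunit measured, averaged 11.09 ± 0.0995 in linalool rats and 11.17 ± 0.0595 in stress rats (SD, n = 6 each) and did not pass (difference -0.08, 95% interval -0.18 to 0.03, limma adjusted p = 0.259).

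The delta subunit gene Gabrd did not pass in any of its 3 probe sets. Its signals were 8.36, 8.61 and 9.08 (lowest, median, highest) in linalool rats and 8.75, 8.98 and 9.53 in stress rats for 1369048_at, with overlap (difference -0.40, 95% interval -0.77 to -0.02, limma adjusted p = 0.113). The probe set 1395269_s_at differed by -0.30 (SE 0.125, limma adjusted p = 0.109), and the compressed 1395270_x_at, whose suffix marks probes that can bind other transcripts, by 0.326 residual SDs (limma adjusted p = 0.717). The gamma1 gene Gabrg1 stood above in linalool rats, at 9.63 ± 0.144 against 9.46 ± 0.118 in stress rats (SD, n = 6 each), and did not pass (difference 0.17, 95% interval 0.01 to 0.34, limma adjusted p = 0.114). Without linalool rat 5, the lowest of its group, its adjusted p was 0.035.

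Gabra3 and Gabra5 were compressed in this set and differed by -0.891 and -0.0437 residual SDs (limma adjusted p = 0.285 and 0.965). For Gabra5, which encodes a subunit best known from the hippocampus, the same 6 stress rats had an SD of 0.000145 in the linalool set and 0.0913 in the control set, 630 times more, although their values correlated between the sets (r = 0.964). Its log2 difference with linalool is therefore one on the compressed scale. Along the cluster on chromosome 14, the 4 genes therefore gave differences of -0.08 (Gabrb1), -0.68 (Gabra4), -0.58 (Gabra2) and 0.17 (Gabrg1), of which the middle 2 passed. Differences between neighbours were not tested.

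Of the GABA-B receptor genes, Gabbr2 fell in both of its probe sets. Probe set 1368952_at had 8.16, 8.25 and 8.54 (lowest, median, highest) in linalool rats, against 8.53, 8.87 and 9.08 in stress rats, overlapping only between the highest linalool and the lowest stress rat (difference -0.52, SE 0.104, limma adjusted p = 0.00549). Probe set 1387383_at averaged 11.24 ± 0.179 in linalool rats and 11.65 ± 0.245 in stress rats (SD, n = 6 each; difference -0.41, SE 0.121, limma adjusted p = 0.0321), with linalool rat 1 above stress rats 2 and 5. The call of 1387383_at ended without stress rat 1, 3, 4 or 6 or linalool rat 2, 3 or 5 (adjusted p between 0.0588 and 0.0686) and with quantile normalization (adjusted p = 0.0575).

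The 5 probe sets of Gabbr1 did not go together. Probe set 1369371_a_at had 10.20, 10.38 and 10.83 (lowest, median, highest) in linalool rats, against 10.88, 11.09 and 11.16 in stress rats, a difference of -0.63 (SE 0.1, limma adjusted p = 0.00173). Probe set 1375720_at had 11.44, 11.57 and 11.58 in linalool rats, against 11.28, 11.38 and 11.43 in stress rats, a difference of 0.18 in the other direction (SE 0.0328, limma adjusted p = 0.00314). In both, the 6 linalool rats lay apart from the 6 stress rats. The brightest probe set, 1388039_a_at, averaged 12.77 ± 0.0615 in linalool rats and 12.80 ± 0.12 in stress rats (SD, n = 6 each; limma adjusted p = 0.713), and the remaining 2 had adjusted p-values of 0.86 and 0.963. No single direction can be given for Gabbr1 from these probe sets.

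**Figure D2:**
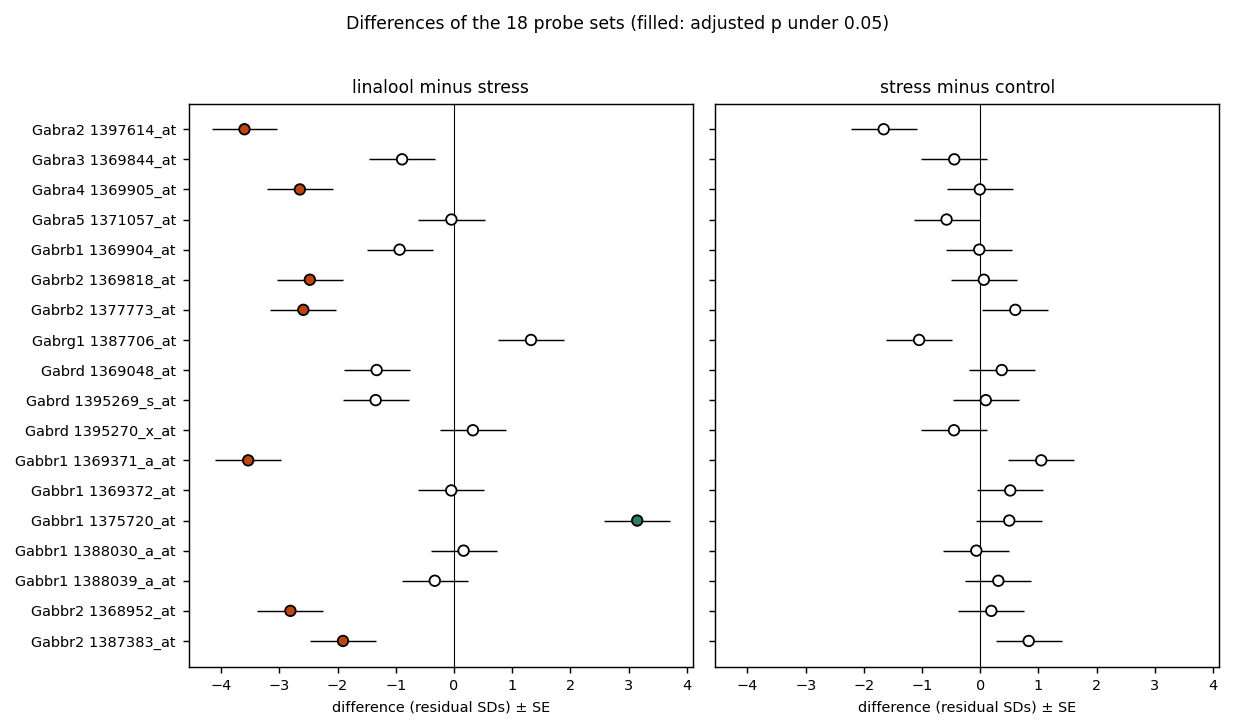
Difference of each of the 18 probe sets in residual SDs, with its standard error, for linalool minus stress (left) and stress minus control (right). Filled points passed an adjusted p of 0.05: 7 lower and 1 higher with linalool, and 0 with stress.

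Other genes of the pathway gave a mixed picture. Of 11 other ionotropic GABA receptor subunits listed, 8 were analysed here with 13 probe sets, 12 of them compressed, and 1 was lower with linalool: Gabrr1, a rho subunit best known from the retina (-2.52 residual SDs, limma adjusted p = 0.00948), whose second probe set differed by -0.693 residual SDs (adjusted p = 0.407). A list of 30 receptor partner genes held genes for anchoring, traffic and coupling, and also Dbi, Fxyd1, Slc12a2 and Slc12a5. Of the 30, 27 were analysed with 46 probe sets, of which 7 were higher and 8 lower (32.6%, against 25% of all). Genes that rose included Dbi, the diazepam binding inhibitor, an endogenous ligand of GABA-A receptors, which averaged 12.18 in linalool rats and 11.74 in stress rats (difference 0.44, SE 0.0367, limma adjusted p = 8.93e-05). The sodium pump regulator Fxyd1 rose by 0.33 and the GABA-A receptor binding proteins Gabarap and Gabarapl1 by 0.13 and 0.04 (limma adjusted p = 0.00286, 0.00968 and 0.00331). Among those that fell were Clptm1, known to hold GABA-A receptors in the endoplasmic reticulum (-5.66 residual SDs), the GABA-B auxiliary subunit Kctd16 (-2.41 residual SDs), and the potassium channel genes Kcnj3 (-2.36 residual SDs in 1 of 3 probe sets) and Kcnj9 (-0.23 on the log2 scale), whose products GABA-B receptors open (limma adjusted p = 0.000173, 0.0122, 0.0131 and 0.0142). Kcnj3 has 2 further probe sets, which did not pass (-1.32 and 0.226 residual SDs, limma adjusted p = 0.117 and 0.809), and neither did the second ones of Gabarap (1.48 residual SDs, adjusted p = 0.0829) and Gabarapl1 (-0.753 residual SDs, adjusted p = 0.367). The palmitoyltransferase gene Zdhhc3 gave a probe set in each direction (2.47 and -3.02 residual SDs, limma adjusted p = 0.0114 and 0.00492).

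Restraint alone was compared with control to ask whether stress changed the same receptor genes. None of the 18 probe sets passed (limma), where 0.554% of all probe sets did (0.341% higher, 0.213% lower), and none passed with an ordinary t-statistic of the same fit. At an unadjusted p under 0.05 there was 1 of the 18, against 16% of all. The groups overlapped for all 18, and did not for 1.78% of all probe sets. The median difference was 0.078 residual SDs, against 0.12 over all probe sets.

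**Figure D3:**
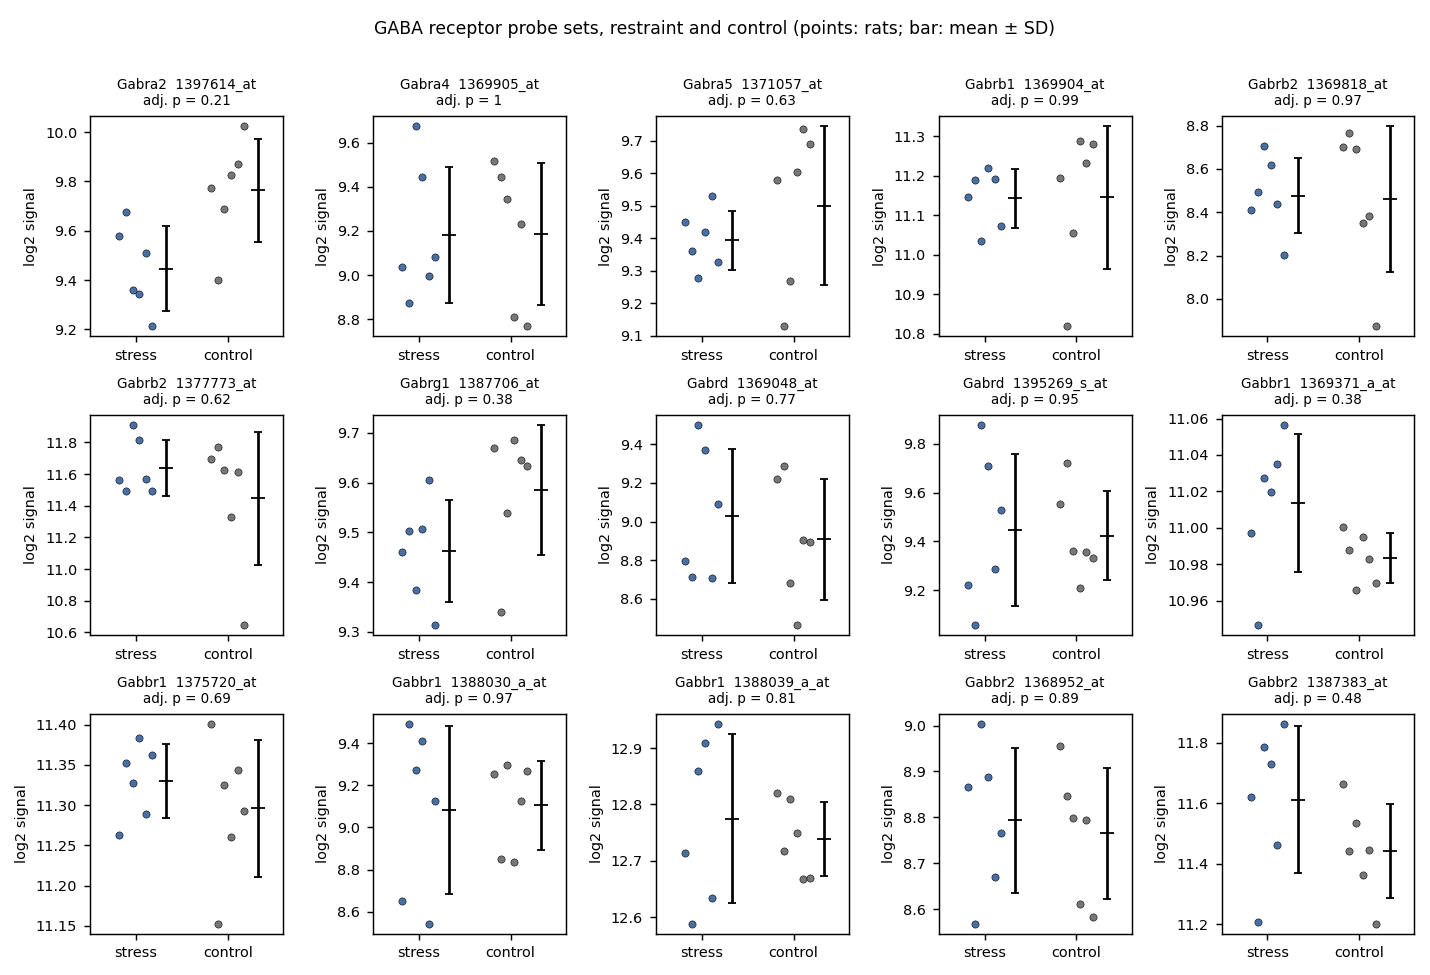
Log2 signal (vertical axes) of the 15 receptor probe sets that were not compressed in the control set, in stress rats (left of each panel) and controls (right), 6 points each, with mean ± SD beside them. The groups overlap in every panel, and control 6 is lowest in both Gabrb2 panels, as is control 2 for Gabrb1.

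Gabra2 was the probe set with the unadjusted p under 0.05. It had 9.21, 9.43 and 9.68 (lowest, median, highest) in stress rats, against 9.40, 9.80 and 10.02 in controls, a difference of -0.32 (SE 0.108, 95% interval -0.56 to -0.08, limma adjusted p = 0.21). Gabra4 had 8.87, 9.06 and 9.67 in stress rats, against 8.77, 9.29 and 9.52 in controls, and its difference of -0.00266 had a 95% interval of -0.40 to 0.39 (limma adjusted p = 0.996). A Gabra4 difference of either sign within that interval is compatible with these values.

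The other GABA-A genes differed by -0.11 (Gabra5), -0.00238 (Gabrb1), -0.12 (Gabrg1), 0.19 and 0.02 (the 2 probe sets of Gabrb2) and 0.12 and 0.02 (the 2 uncompressed probe sets of Gabrd), with limma adjusted p-values from 0.381 (Gabrg1) to 0.991 (Gabrb1). Gabra3 and the third Gabrd probe set differed by -0.447 and -0.452 residual SDs. Gabbr2 differed by 0.17 and 0.03 and the 4 uncompressed probe sets of Gabbr1 by -0.02 to 0.04, with adjusted p-values of 0.383 or more. Of the other subunits 0 of 13 probe sets and of the receptor partners 0 of 46 passed (limma; 0 and 7 at an unadjusted p under 0.05).

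Both comparisons use the same 6 stress rats, so they are not independent. Side by side, with linalool minus stress first and stress minus control second, the log2 differences were -0.58 and -0.32 for Gabra2, -0.68 and -0.00266 for Gabra4, -0.37 and 0.19 for the brighter Gabrb2 probe set, and -0.41 and 0.17 for the brighter Gabbr2 probe set.

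The subunit genes also varied together between rats of the same group. For the 12 stress and control rats, deviations from the group mean were correlated between genes, with 1 probe set per gene, and with the scores of 9 thalamus and 10 hypothalamus marker genes, in 65 relations. Of the 45 pairs of receptor genes, 11 passed an adjusted p of 0.05 over the 65 by Pearson's r (permutation within groups), 10 positive and 1 negative. The positive ones tied Gabra4 to Gabrd, Gabrb2 and Gabbr2, tied Gabbr1 to Gabbr2, and were all 6 pairs among Gabra2, Gabra5, Gabrb1 and Gabrg1. These sets were read from the correlations themselves. By Spearman's rho, of these 11 only Gabra4 with Gabrd, Gabrb2 and Gabbr2, and Gabrb1 with Gabrg1, passed after adjustment. Gabrb2 with Gabrd passed by rho alone (rho = 0.886, permutation p = 0.00114, adjusted p = 0.0185). The meninges scores of controls 4, 5 and 6 were 0.78, 2.29 and 2.15, above those of the other 9 rats, and their part in the correlations was not tested. Control 2 was the lowest control for Gabra2, Gabra5, Gabrb1 and Gabrg1, at 9.40, 9.13, 10.82 and 9.34. It also had the lowest hypothalamus score of the controls (-1.09). The part of control 2 in the correlations, also in those within controls, was not tested by itself. Values within each group are given beside the correlations.

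Gabra4 went with Gabrd, its partner in extrasynaptic receptors (Pearson r = 0.844, permutation p = 0.00018, adjusted p = 0.00234; Spearman rho = 0.914, p = 0.00034, adjusted p = 0.00758; n = 12 rats). Without the 2 rats farthest from the median of Gabra4 the r was 0.843, and within groups it was 0.947 in stress rats and 0.764 in controls. Gabra4 also went with Gabrb2 (r = 0.831, permutation p = 0.00011, adjusted p = 0.00227; rho = 0.857, p = 0.00222, adjusted p = 0.024; r = 0.921 without the 2 farthest rats, 0.966 in stress rats and 0.858 in controls).

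Gabra4 went with Gabbr2 too (r = 0.72, permutation p = 0.0106, adjusted p = 0.0383; rho = 0.829, p = 0.0034, adjusted p = 0.0276; r = 0.637 without the 2 farthest rats, 0.654 in stress rats and 0.869 in controls).

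The GABA-B partners Gabbr1 and Gabbr2 went together in their brightest probe sets, 1388039_a_at and 1387383_at (r = 0.887, permutation p = 0.00014, adjusted p = 0.00227). On ranks, rho was 0.771 (permutation p = 0.0098, adjusted p = 0.0579). The r was 0.795 without the 2 farthest rats, 0.932 in stress rats and 0.78 in controls. The other probe sets of these genes, which for Gabbr1 did not go together with linalool, were not correlated.

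Of the 6 pairs, Gabrb1 went with Gabrg1, which lies in the same cluster on chromosome 14 (r = 0.9, permutation p = 0.00094, adjusted p = 0.00764; rho = 0.829, p = 0.00388, adjusted p = 0.028; r = 0.757 without the 2 rats farthest from the median of Gabrb1, 0.828 in stress rats and 0.97 in controls). Gabra5 went with Gabrb1 (r = 0.908, permutation p = 0.00148, adjusted p = 0.0107; rho = 0.743, p = 0.0146, adjusted p = 0.0634; r = 0.792 without the 2 farthest rats, 0.741 in stress rats and 0.935 in controls), and Gabra5 with Gabrg1 (r = 0.832, permutation p = 0.00174, adjusted p = 0.0113; rho = 0.657, p = 0.0379, adjusted p = 0.112; r = 0.7 without the 2 farthest rats, 0.822 in stress rats and 0.888 in controls). The r of Gabra2 with Gabra5, Gabrb1 and Gabrg1 was 0.748, 0.797 and 0.772 (permutation p = 0.00503, 0.00446 and 0.00976, adjusted p = 0.0272, 0.0264 and 0.0373). On ranks these 3 pairs did not pass (rho = 0.657, 0.486 and 0.429, permutation p = 0.0369, 0.142 and 0.201, adjusted p = 0.112, 0.231 and 0.286). Without the 2 farthest rats the r was 0.546, 0.546 and 0.346, so that these 3 values rested on them. It was 0.406, 0.51 and 0.629 in stress rats and 0.909, 0.942 and 0.864 in controls. Across the sets, Gabra2 ran against Gabrd (r = -0.732, permutation p = 0.00779, adjusted p = 0.0324; rho = -0.771, p = 0.00927, adjusted p = 0.0579; r = -0.741 without the 2 farthest rats, -0.797 in stress rats and -0.757 in controls). Neighbours on chromosome 14 thus differed in sign, without passing after adjustment: the r of Gabra4 was -0.547 with Gabrb1 and -0.627 with Gabra2 (permutation p = 0.0691 and 0.0405, adjusted p = 0.115 and 0.0877; rho = -0.571 and -0.743, p = 0.0779 and 0.0137).

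**Figure D4:**
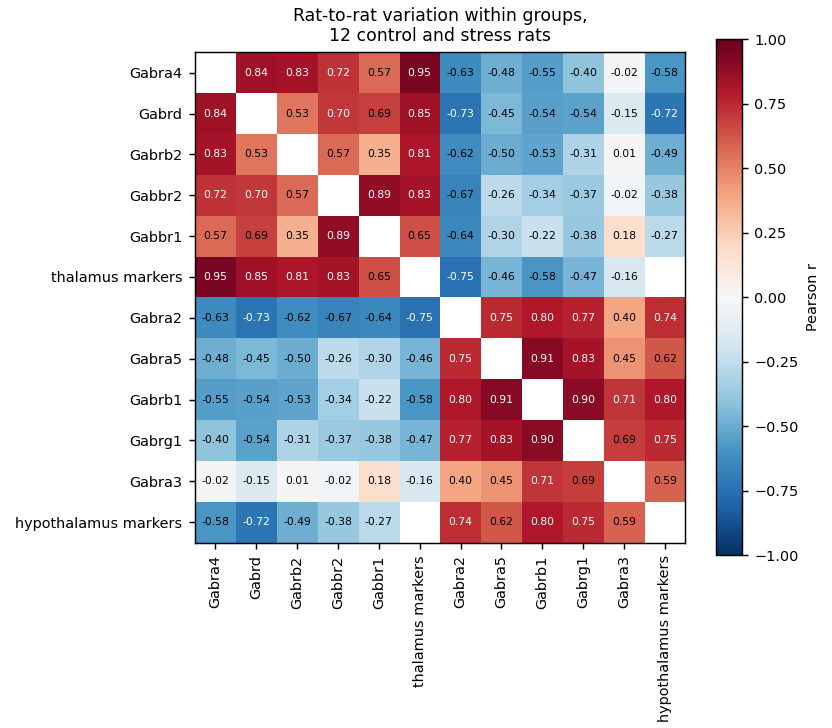
Pearson r between the deviations of 12 stress and control rats from their group means, for the 10 receptor genes (1 probe set each) and the scores of thalamus and hypothalamus markers. Gabra4, Gabrd, Gabrb2 and Gabbr2 go with the thalamus markers, with r from 0.809 to 0.951, while Gabra2, Gabra5, Gabrb1 and Gabrg1 have r from 0.622 to 0.8 with the hypothalamus markers, of which those of Gabra5 and Gabrg1 did not pass (adjusted p = 0.101 and 0.0532, permutation).

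Gabra4, Gabrd, Gabrb2 and Gabbr2 followed the thalamus markers, genes such as Tcf7l2, Rora, Ntng1 and Prkcd that are abundant in the thalamus next to the dissected block. Gabra4 had r = 0.951 with their score (permutation p = 1e-05, the smallest that 100000 permutations can give, adjusted p = 0.00065; rho = 1 on ranks within groups, p = 1e-05), with 0.949 without the 2 farthest rats, 0.905 in stress rats and 0.992 in controls. The r was 0.85 for Gabrd, 0.833 for Gabbr2 and 0.809 for Gabrb2 (permutation p = 0.00031, 0.00049 and 0.00013, adjusted p = 0.00336, 0.00455 and 0.00227; rho = 0.914, 0.829 and 0.857, p = 0.00035, 0.0033 and 0.00208; r = 0.811, 0.674 and 0.824 without the 2 farthest rats). Within groups it was 0.967, 0.895 and 0.805 in stress rats and 0.816, 0.845 and 0.859 in controls. Gabra2 ran against the thalamus score (r = -0.747, permutation p = 0.00798, adjusted p = 0.0324). Its rho was -0.743 (permutation p = 0.0137, adjusted p = 0.0634). The r was -0.817 without the 2 farthest rats, -0.808 in stress rats and -0.705 in controls. With the hypothalamus score 3 of 10 relations passed by Pearson's r. The r was 0.8 for Gabrb1, 0.738 for Gabra2 and -0.719 for Gabrd (permutation p = 0.00715, 0.0145 and 0.00559, adjusted p = 0.0324, 0.0496 and 0.0279). On ranks these 3 did not pass (rho = 0.514, 0.571 and -0.657, permutation p = 0.119, 0.0791 and 0.0368, adjusted p = 0.208, 0.161 and 0.112). Without the 2 farthest rats the r was 0.383, 0.576 and -0.38, so that these values rested on few rats. Within groups it was 0.742, 0.676 and -0.89 in stress rats and 0.863, 0.779 and -0.608 in controls.

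Among the 6 linalool rats alone, none of the 65 relations passed after adjustment (exact permutation). The 720 orders of 6 rats allow no p below 0.00139, which is 0.0903 after multiplication by 65, so that no relation could pass alone. At an unadjusted p under 0.05 there were 2 of 45 gene pairs, 1 of 10 relations with the thalamus and 2 of 10 with the hypothalamus score. Gabra4 had r = 0.841 with the thalamus score (exact permutation p = 0.0431, adjusted p = 0.557; rho = 0.771, p = 0.103), and -0.0292 without the 2 farthest rats, so that this value rested on 2 rats.

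The thalamus markers also stood lower with the odour. Of their 20 probe sets, 3 were lower (Rora, Ntng1 and Gbx2), none higher and 17 did not pass (limma), and 6 were compressed. That is 15% lower, where 10.8% of all probe sets and 21.3% of those not compressed were lower. Of all probe sets, 25% passed in either direction. At an unadjusted p under 0.05 there were 12 (limma), against 37.7% of all and 3165 of the 5058 not compressed. Their median difference was -1.35 residual SDs, against -0.0136 over all, with 16 negative and 4 positive. The score lay between -1.67 and -0.15 in linalool rats and between -0.77 and 1.90 in stress rats. The mean log2 signal over the 9 genes was 9.02 to 9.60 in linalool rats and 9.31 to 10.19 in stress rats (the lowest signal in the files is 5.59). The part of these markers in the lower Gabra2, Gabra4, Gabrb2 and Gabbr2 signals was not tested.

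**Figure D5:**
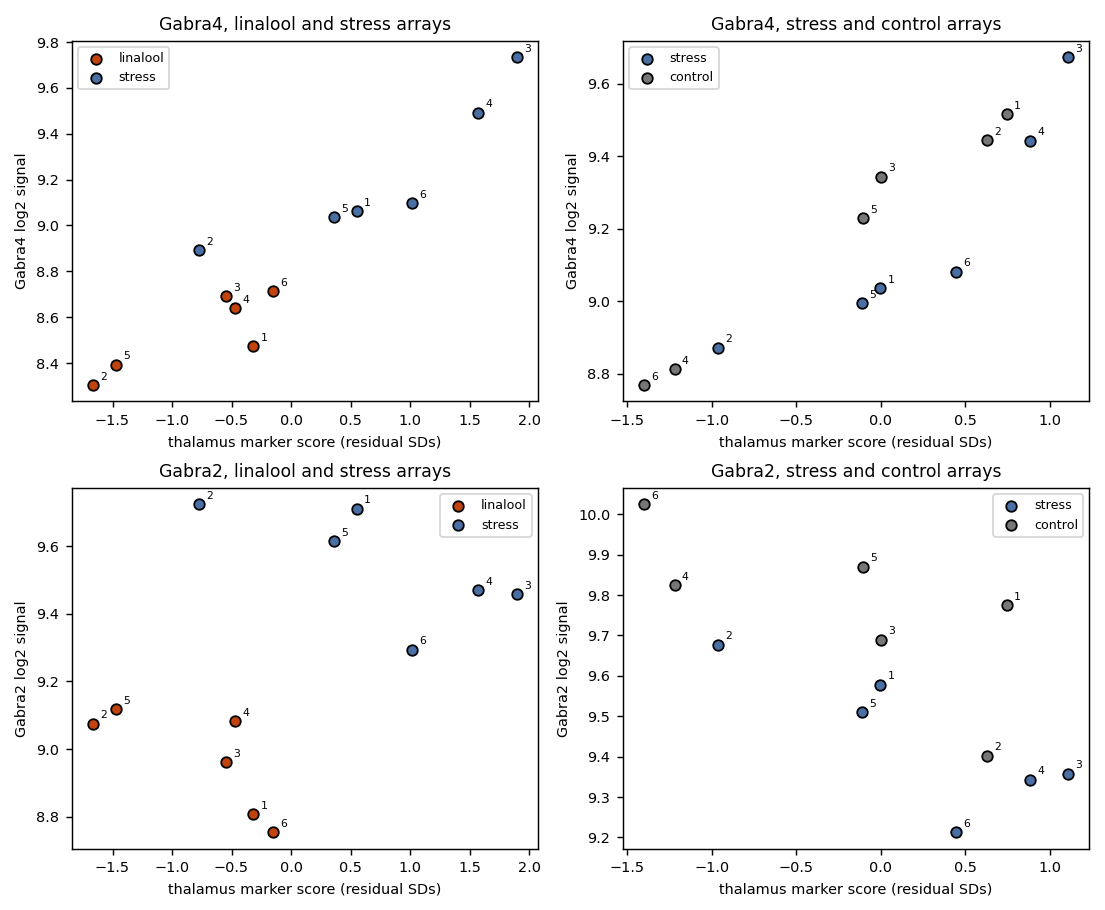
Log2 signal of Gabra4 (top) and Gabra2 (bottom) against the thalamus marker score in residual SDs, for linalool and stress arrays (left) and stress and control arrays (right), with points numbered by rat. In the stress and control arrays, Gabra4 climbs with the score among the rats of a group, while Gabra2 falls with it. Among the 6 linalool rats neither relation passed (adjusted p = 0.557 for Gabra4 and 0.711 for Gabra2, exact permutation). Both genes lie lower in all 6 linalool rats than in the stress rats.

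In the other marker lists, the share that passed was 33.3% for astrocytes, 23.1% for oligodendrocytes and 22.2% for neurons. It was 20% for microglia and striatum and 0% for hypothalamus and meninges. Of all probe sets 25% passed, and of those not compressed 49.7%. The lists differ in how many probe sets were compressed (6 of 15 for astrocytes, 6 of 18 for neurons, 7 of 10 for microglia). No list is therefore called above or below the other probe sets. Of 18 probe sets for neuronal markers 3 were lower (Syt1 and Rbfox3 among them) and 1 higher (Gad1, an enzyme that makes GABA, by 0.67, limma adjusted p = 0.012). Their score was -1.07 to 0.28 in linalool rats and 0.29 to 0.76 in stress rats. Of 15 astrocyte probe sets 2 were higher (Gja1 and Mlc1) and 3 lower (2 of them of Slc1a2), of 13 oligodendrocyte probe sets 1 was higher (Cldn11) and 2 lower (Mag and Mbp), of 10 microglia probe sets 2 were higher (Aif1 and Itgam), and of 15 striatum probe sets 3 were lower, all of Foxp1. None of the 10 hypothalamus or 18 meninges probe sets passed (limma; 1 and 1 at an unadjusted p under 0.05). The part of these markers in the receptor results was not tested. In stress against control rats, none of the probe sets of the 8 marker lists passed (limma; 12 of 18 meninges and 4 of 18 neuronal ones at an unadjusted p under 0.05). The neuronal score was 0.19 to 0.38 in stress rats and -0.35 to -0.15 in controls.

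Gabra2 had the smallest p of the receptor genes in both comparisons, and the genes most like it over the 12 arrays of a set were found among 14217 genes by Pearson's r. In the linalool set they were Xpo4, Nmnat2, Nav1, Mau2 and Stox2, with r from 0.962 to 0.97 over all arrays, 0.804 to 0.902 within groups, and 0.384 to 0.711 in the control set. In the control set they were Tshz1, Ryk, Alcam, Vstm2a and Eml4, with r from 0.922 to 0.943, and from -0.623 (Ryk) to 0.836 (Alcam) in the linalool set. No gene is in both lists of 5. The arrays of a set share their normalization, and the 6 stress rats are in both sets, so these are descriptions without a test.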

How the data were processed

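The authors deposited 1 log2 signal per probe set and array of a 3' expression array, normalized in 2 sets per the series design text; the summarization and normalization methods are not given in the sources used here, and the log2 scale was read from the range (5.59 to 14.93). The 24 columns hold 18 rats, since the 6 stress arrays are in both sets. Of 31099 probe sets, 57 array controls were left out of the tests of genes. All 18 receptor probe sets matched a RefSeq gene identifier.

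Each comparison was fitted in its own set of 12 arrays in R 4.3.3 by the two-sided moderated test of limma 3.58.1, with Benjamini-Hochberg adjustment over 31042 probe sets and a threshold of 0.05. Residual SD is that of the fit. A probe set with a residual SD under 0.01 is called compressed. The number of arrays limits the precision, and p-values measure the spread between arrays of different rats. The members, gene lists and tests were chosen with earlier results of these data known. All receptor probe sets are named; of the other lists, up to 5 higher and 5 lower genes by p, and up to 3 per marker list. Alternatives were quantile normalization, median centring, an ordinary t, a variance trend, a filter on level, 1 value per gene, array weights, a replicate block and arrays left out.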

Additional observations from a re-analysis of the deposited data

Results flagged for a closer look

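Within a group of 6 rats, the highest or lowest value stood apart by Dixon's criterion (a large gap to the nearest rat relative to the group's range) in 4 of 72 tests of receptor probe sets, where chance flags about 1 in 20 groups. In linalool rat 1, Gabrb1 was at 10.89 (nearest rat 11.10), Gabbr1 probe set 1375720_at at 11.44 (nearest 11.56) and Gabbr1 probe set 1388030_a_at at 8.56 (nearest 9.07), each the lowest of its group. In linalool rat 3, the compressed Gabrd probe set 1395270_x_at was highest at 8.0226, 0.000331 above the nearest rat.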

How the results depend on the processing

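For linalool minus stress, the 8 called receptor probe sets (7 lower, 1 higher) became 15 of 18 with columns centred on their median (6 higher, 9 lower), and 4 of 10 genes, all lower, with 1 probe set per gene or the mean of its probe sets; the count was 7 with quantile normalization and 7 to 8 without 1 rat. All called probe sets numbered 7763 (56.7% higher), 2608 with quantile normalization (58.6% higher), 28990 with median centring (94.9% higher, since the centring shifts every probe set by 0.00761, more than the residual SD of compressed ones), 4229 with 1 probe set per gene, 4380 with the mean, and 6383 to 7466 without 1 rat. For stress minus control the receptor count was 0 under every alternative run, 0 to 0 without 1 rat, while all called probe sets numbered 172 (61.6% higher), 77 with quantile normalization, 92 with median centring, 101 with 1 probe set per gene, 91 with the mean, 16 with the replicate block (37.5% higher), 1 without controls 4, 5 and 6, and 24 (without stress rat 1) to 205 (without control 2) when 1 rat was left out. Whether the replicate numbers pair the rats is not known from the labels. In the control set 4 of 6 same-numbered pairs correlated over 0.1, the highest at 0.223, and pairs of different numbers reached 0.218. In the linalool set 1 of 6 same-numbered pairs correlated over 0.1. With the replicate block the receptor count for linalool was 7 (the Gabrb2 probe set 1369818_at had a limma adjusted p of 0.0524), and for stress 0.

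Signs changed only for receptor probe sets without a call in the main setting. For linalool, with quantile normalization Gabbr1 1369372_at and Gabra3 were at 0.00648 and 0.00706, with median centring Gabbr1 1369372_at, Gabra3 and Gabra5 at 0.0076, 0.00747 and 0.0076, and with array weights Gabbr1 1369372_at and Gabra5 at 2.29e-05 and 1.41e-05. For stress, quantile normalization gave 0.00871 (Gabra3), 0.0102 (Gabra4) and 0.00881 (Gabrd 1395270_x_at), median centring 0.00955 (Gabra3), 0.00726 (Gabrb1), 0.00698 (Gabra4) and 0.00948 (Gabrd 1395270_x_at), and array weights 0.0713 (Gabra4). Without controls 4, 5 and 6 the stress differences were -0.0729 (Gabbr2 1368952_at), -0.0334 (Gabrd 1369048_at), -0.242 and -0.0569 (Gabrb2), 0.12 (Gabrb1), 0.0684 (Gabra5), -0.00733 (Gabbr1 1388039_a_at) and -0.0979 (Gabrd 1395269_s_at); the cause was not tested. Ranges over fits without 1 rat that crossed 0 were, for linalool, -5.9e-05 to 7.8e-05 (Gabbr1 1369372_at), -0.0477 to 0.173 (Gabbr1 1388030_a_at), -5.58e-05 to 3.51e-05 (Gabra5) and -4.04e-06 to 0.000113 (Gabrd 1395270_x_at), and for stress, -0.104 to 0.0867 (Gabbr1 1388030_a_at), -0.0136 to 0.0735 (Gabbr2 1368952_at), -0.101 to 0.0635 (Gabra4), -0.0676 to 0.0263 (Gabrb1), -0.101 to 0.0774 (Gabrb2 1369818_at) and -0.062 to 0.102 (Gabrd 1395269_s_at). How far each signal lies above background is not known from the values.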
